A study of Mus musculus with 5 samples.

Results

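Ceacam1, Ceacam2, Ceacam10 and Ceacam20, which are carcinoembryonic antigen family members, were followed together with Cd177 in single cells of mouse colon tumors and normal colon. These 5 genes were taken by name from the 21486 genes of the tables, and all 5 were detected in every library. The single cells came from 5 inDrop libraries of WT mice, of which 4 were AOM/DSS tumors (azoxymethane, a carcinogen, and dextran sodium sulfate, which inflames the colon) under 5FU+Irinotecan chemotherapy. The early group was day 1 replicate 1 and day 1 replicate 2, and the late group was day 3 and day 6. The last library was untreated normal colon prepared to enrich stroma, so it differed from the tumors in dissociation as well as in disease and treatment, and these cannot be told apart. Day 1 replicate 1 and day 3 had a single index structure and were read on the BGI MGI-Seq, and the other libraries had a dual index structure and were read on the NovaSeq6000. From when the days count was not settled by the sources. The study calls both pairs biological replicates, but the late pair differs in day, and late against early tests rest on 2 libraries per group.

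CEACAM proteins are adhesion molecules of the immunoglobulin superfamily. CEACAM1 lies on epithelial cells and leukocytes and carries inhibitory tyrosine motifs that recruit the phosphatases SHP-1 (Ptpn6) and SHP-2 (Ptpn11), and CEACAM2 is its close mouse paralog. CEACAM10 is a secreted mouse family member, and CEACAM20 sits on the microvilli of intestinal epithelial cells, where the phosphatase SAP-1 (Ptprh) acts on it and the kinase SYK can bind it. CD177 is a surface glycoprotein anchored by a lipid, known from neutrophils, where it associates with proteinase 3 and the integrin chain ITGAM and binds PECAM1 on endothelium.

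After cells with under 500 genes or over 15% mitochondrial counts were removed, 748, 2403, 1419, 2826 and 1095 cells remained (libraries in order of day and replicate, the normal library last), at medians of 2903 to 3601 UMIs per cell. Of 8559 barcodes, 161 were seen in at least 2 libraries. Clusters built without the 5 genes gave 3785 columnar-like cells (278, 1238, 899 and 1370 in the treated libraries, in the same order) and 327 in the normal library. Squamous-like cells were 54, 189, 279 and 729, and neutrophil-like cells were 70, 401, 27 and 24. The neutrophil marker S100a9 stood at 7922, 5300, 3369 and 9328 CPM (UMIs of a gene per 1000000 UMIs of those cells) in neutrophil-like cells, and at 54.1, 41.8, 72.1 and 6.20 CPM in columnar-like cells. Fibroblast-like cells (14, 39, 30 and 56), which are not a usual source of these genes, were read as a measure of free RNA in each library. By this measure Ceacam1 was highest in day 3, where it stood at 1186 CPM in fibroblast-like cells, against 509 and 278 CPM on day 1, 309 CPM on day 6 and 63.0 CPM in the normal library.

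All 5 genes lie on mouse chromosome 7 (GRCm38, GENCODE vM21). Ceacam20 (ENSMUSG00000070777.5) spans 19965412 to 19991104 on the plus strand, and Cd177 (ENSMUSG00000052212.6) spans 24743983 to 24760311 on the minus strand. Ceacam10 (ENSMUSG00000054169.7) follows at 24777206 to 24784657 on the plus strand, so that the Cd177 and Ceacam10 starts face away from each other at a distance of 16895 bases with 0 protein-coding genes between them. Ceacam1 (ENSMUSG00000074272.10) spans 25461707 to 25477603 and Ceacam2 (ENSMUSG00000054385.14) spans 25516042 to 25539857, both on the minus strand and both overlapped by the antisense gene 4732471J01Rik. The promoters of Ceacam1, Ceacam10 and Cd177 are shown because the first pair is close in sequence while the second pair are neighbours with a like pattern over cell types (described later). They are RefSeq sequences (GRCm38.p6) from 250 bases before to 50 after the start, 5′ to 3′ on the gene's strand, at chr7:25477576-25477875, chr7:24776917-24777216 and chr7:24760262-24760561. Capitals mark an E-box, spelled CACGTG, in the Ceacam1 and Ceacam10 lines. In the Cd177 line they mark a TATA motif with the letters TATAAA. Both motifs were searched on both strands and do not overlap each other.
Ceacam1: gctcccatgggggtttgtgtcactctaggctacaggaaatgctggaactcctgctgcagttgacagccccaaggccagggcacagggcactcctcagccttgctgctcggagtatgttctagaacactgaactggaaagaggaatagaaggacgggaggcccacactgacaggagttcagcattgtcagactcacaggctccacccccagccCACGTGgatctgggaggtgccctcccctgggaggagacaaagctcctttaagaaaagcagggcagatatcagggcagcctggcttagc
Ceacam10: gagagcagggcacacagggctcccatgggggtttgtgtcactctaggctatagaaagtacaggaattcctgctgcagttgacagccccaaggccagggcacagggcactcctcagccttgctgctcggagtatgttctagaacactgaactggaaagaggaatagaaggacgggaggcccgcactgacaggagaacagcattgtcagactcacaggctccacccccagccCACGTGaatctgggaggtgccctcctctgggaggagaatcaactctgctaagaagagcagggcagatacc
Cd177: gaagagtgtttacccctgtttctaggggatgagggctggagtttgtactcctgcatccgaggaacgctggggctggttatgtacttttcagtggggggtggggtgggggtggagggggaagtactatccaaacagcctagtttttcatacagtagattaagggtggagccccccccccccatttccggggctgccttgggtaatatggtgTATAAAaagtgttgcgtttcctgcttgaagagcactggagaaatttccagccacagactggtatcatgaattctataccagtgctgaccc
The Ceacam1 and Ceacam10 promoters were identical at 262 of 282 aligned positions (92.9%), and each held 1 E-box, which 7.15% of all promoters in the table hold. Ceacam1 and Ceacam2 promoters aligned over 170 positions with 77.6% identity, and the Ceacam2 and Ceacam20 promoters held neither motif. The Cd177 promoter held 1 such TATA motif, found in 13.6% of promoters, and aligned with that of Ceacam10 over only 14 positions. These matches describe letters and not binding.

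**Figure D1:**
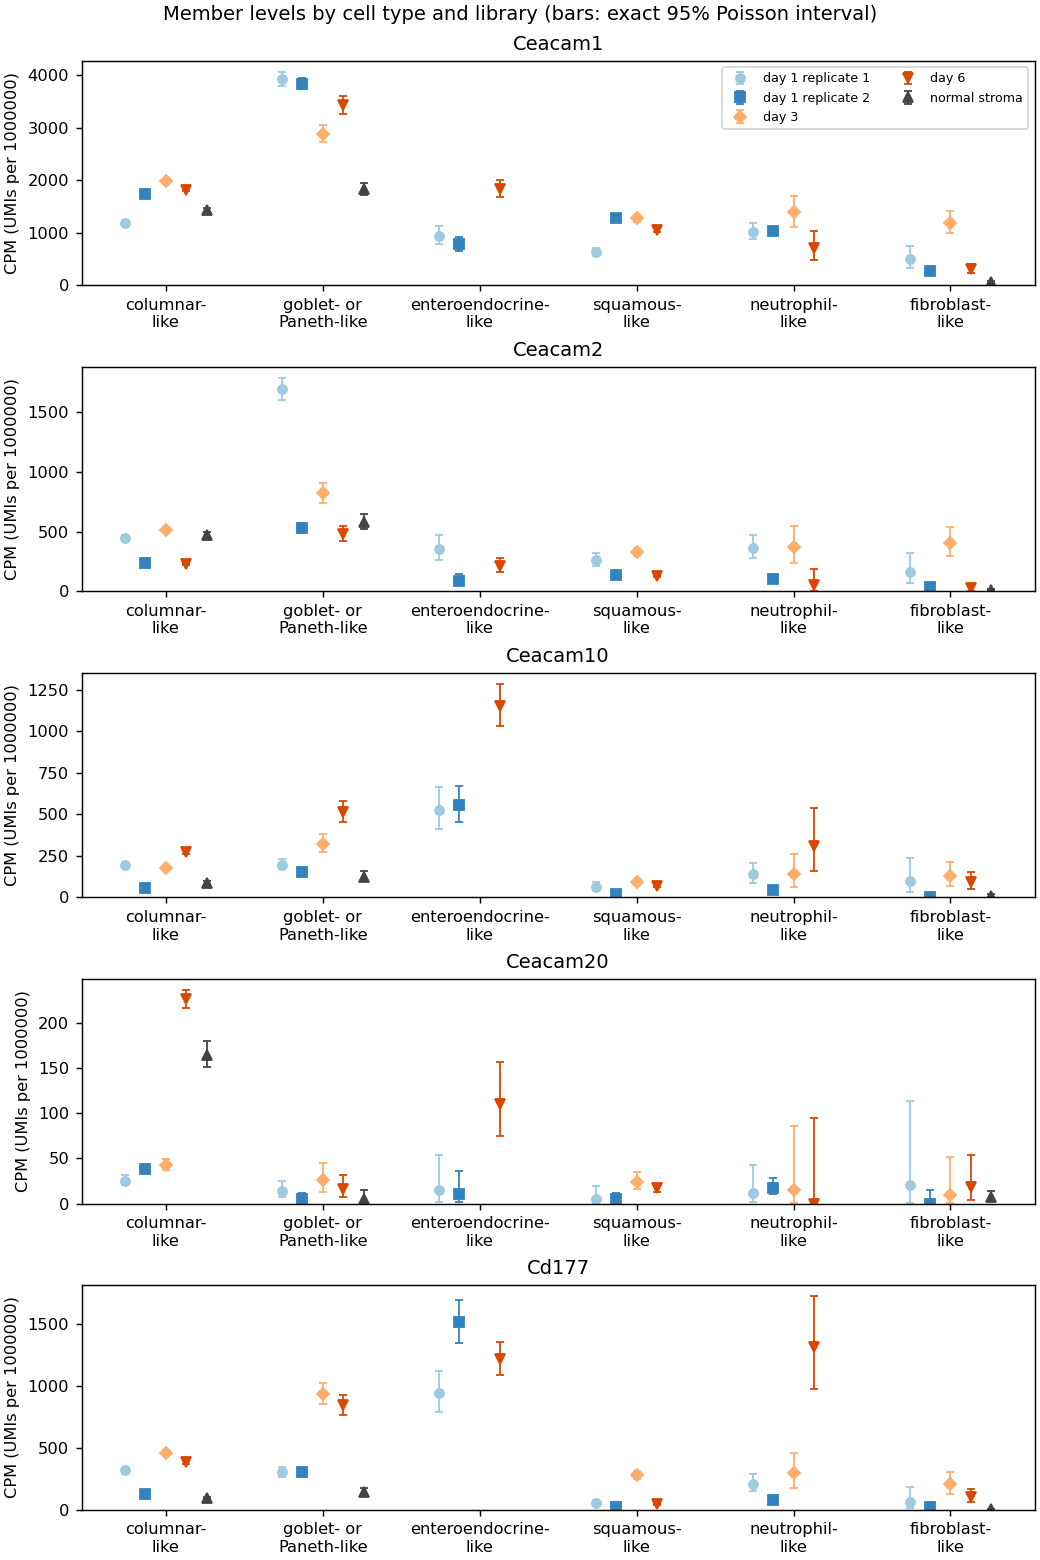
CPM of each gene (vertical axis, from 0) by cell type (horizontal axis) with 1 symbol per library and exact 95% Poisson intervals. Ceacam1 and Ceacam2 stood highest in goblet- or Paneth-like cells, Ceacam10 in enteroendocrine-like cells (with much of it in 1 cell on day 1) and Ceacam20 in columnar-like cells of day 6 and the normal library, while Cd177 was near 1000 or above in enteroendocrine-like cells and in the day 6 neutrophil-like cells.

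Ceacam1 was present in most columnar-like cells. Its level was 1186, 1739, 1983 and 1827 CPM in the treated libraries, again ordered by day and replicate, and 1438 CPM in the normal library, so the normal value lay inside the range of the tumors. The low end of that range, day 1 replicate 1, depended on the columnar-like cluster whose markers stood closest to non-epithelial cells. This cluster held 150 of the 278 columnar-like cells there, with Ceacam1 at 402 CPM. Between 86.0% and 95.6% of columnar-like tumor cells held at least 1 Ceacam1 UMI, but 62.5% to 96.7% of fibroblast-like tumor cells did too, and after thinning to 1000 UMIs the shares were 47.8% to 74.4% against 27.5% to 80.0%. In day 3 the thinned share was higher in fibroblast-like cells than in columnar-like cells, so there a UMI of Ceacam1 in a single cell was at the background. In the normal library the thinned share was 71.9% in columnar-like and 6.77% in fibroblast-like cells. These intervals and shares cover counting error only.

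Goblet- or Paneth-like cells (234, 165, 84 and 47 in the treated libraries, with leading genes of both secretory types) held the highest Ceacam1 level, at 3931, 3843, 2893 and 3435 CPM, and 1832 CPM in the normal library. This comparison was added after the levels had been seen. Ceacam1 was higher than in columnar-like cells in 4 of 4 treated libraries by 1.23 ± 0.24 on the log2 scale (standard error, edgeR's quasi-likelihood test with library as a block, adjusted p = 0.00969). In the same comparison 8.91% of 10957 genes were called, 5.51% as higher, and the 5 members were all called, 4 as higher. Ceacam2 was higher by 1.35 ± 0.24 (edgeR adjusted p = 0.00595), Cd177 by 0.99 ± 0.21 (edgeR adjusted p = 0.0142) and Ceacam10 by 0.97 ± 0.21 (edgeR adjusted p = 0.0200). Ceacam20 went the other way, at -2.02 ± 0.47 (edgeR adjusted p = 0.0244). Without day 1 replicate 2 only Ceacam2 was still called, and without day 3 the calls of Ceacam10 (edgeR adjusted p = 0.0802) and Cd177 (edgeR adjusted p = 0.0781) ended.

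Squamous-like cells, which express keratins of stratified epithelium such as Krt5 (4447 to 6539 CPM in these libraries), held less of the family than columnar-like cells. Ceacam10 stood at 62.0, 19.3, 91.0 and 71.9 CPM in squamous-like cells, against 196, 56.0, 177 and 271 CPM in columnar-like cells of the same libraries. Cd177 stood at 51.2, 18.4, 277 and 42.2 CPM, against 318, 127, 456 and 381 CPM. Every member was lower in squamous-like cells in 4 of 4 libraries. Of the 5 members 4 passed the test as lower, where 8.95% of 12272 genes did and 16.6% were called in either direction. Ceacam20 fell by 2.54 ± 0.54 on the log2 scale (edgeR adjusted p = 0.0138), Cd177 fell by 2.25 ± 0.42 (edgeR adjusted p = 0.00798), Ceacam10 fell by 1.47 ± 0.24 (edgeR adjusted p = 0.00436) and Ceacam2 fell by 0.70 ± 0.17 (edgeR adjusted p = 0.0260). Ceacam1 differed by -0.63 ± 0.19 and did not pass (edgeR adjusted p = 0.0564), though it did with DESeq2 (adjusted p = 0.0358) and in 5 edgeR alternatives, without the filter, without day 1 replicate 2, at resolution 2, without the highest doublet scores and without the cluster closest to non-epithelial cells (adjusted p from 0.00902 to 0.0493). Ceacam10 kept its call whichever library was left out. Ceacam2 lost it in each case, Ceacam20 without either day 1 library (edgeR adjusted p = 0.0601 in both) and Cd177 without day 1 replicate 1 (edgeR adjusted p = 0.0610).

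Set against the fibroblast-like cells, Ceacam1 in squamous-like cells (631, 1286, 1280 and 1054 CPM) was higher in 4 of 4 libraries, by 1.18 ± 0.35 on the log2 scale (edgeR adjusted p = 0.0487, where 15.4% of 5700 genes were called). This call ended without day 1 replicate 2 (edgeR adjusted p = 0.229) and without day 6 (edgeR adjusted p = 0.200). In day 1 replicate 2, 1 squamous-like cell held 29.4% of the Ceacam1 UMIs. Without that cell the level there was 954 CPM, still above the 278 CPM of fibroblast-like cells, and a fit without it was not made. For Ceacam10 the difference from fibroblast-like cells was -0.14 ± 0.38 (edgeR adjusted p = 0.871) and for Cd177 -0.25 ± 0.38 (edgeR adjusted p = 0.737), and Ceacam20 had too few counts to be tested. Squamous-like values of these genes were therefore not told apart from free RNA. This comparison, too, was added after the levels had been seen.

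Neutrophil-like cells held Ceacam1 at 1026, 1039, 1391 and 720 CPM, against 509, 278, 1186 and 309 CPM in fibroblast-like cells of the same libraries. It was higher in 4 of 4 libraries, by 0.98 ± 0.30 on the log2 scale (edgeR adjusted p = 0.0191, where 26.3% of 2863 genes were called), a comparison added after the levels were seen. Without day 1 replicate 2 the edgeR adjusted p was 0.206. Epithelial keratins were also higher in neutrophil-like than in fibroblast-like cells: Krt20 by 1.57 ± 0.35 (edgeR adjusted p = 0.00184), and Krt8 at 1557, 2410, 2132 and 2929 CPM against 936, 837, 1627 and 1575 CPM. The part of epithelial RNA in the Ceacam1 difference was not tested. Against columnar-like cells Ceacam1 differed by -0.50 ± 0.33 (edgeR adjusted p = 0.365), and the only member called was Ceacam20, which fell by 1.28 ± 0.46 (edgeR adjusted p = 0.0384, where 15.2% of 10965 genes were called). That call ended with DESeq2 (adjusted p = 0.0939), and the Ceacam20 counts in neutrophil-like cells were 2, 17, 1 and 0 UMIs. It held in only 1 of 4 fits with 1 library left out (edgeR adjusted p up to 0.104). Ceacam1 and Ceacam2 passed as lower with RLE size factors, at resolution 2 and without the columnar-like cluster closest to non-epithelial cells. Their edgeR adjusted p fell to 0.00113 and 0.000836.

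Cd177 in neutrophil-like cells was uneven. It stood at 210, 80.3, 294 and 1310 CPM, against 61.1, 21.0, 202 and 105 CPM in fibroblast-like cells. It was higher than in fibroblast-like cells in 4 of 4 libraries, by 1.98 ± 0.42 on the log2 scale (edgeR adjusted p = 0.00119), and this held whichever library was left out. The difference from columnar-like cells was 0.15 ± 0.32 (edgeR adjusted p = 0.837), with neutrophil-like cells higher only in day 6. The day 6 value rested on 51 UMIs in 24 cells, of which 16 had a UMI and 1 cell held 13. Without day 6 the difference from columnar-like cells turned to -0.51 (edgeR adjusted p = 0.112). Krt20 was also higher than in fibroblast-like cells, by 1.57. The squamous keratin Krt5 stood at 117, 264, 927 and 1182 CPM in the neutrophil-like cells, against 122, 63.1, 901 and 673 CPM in fibroblast-like cells. The part of such RNA in the Cd177 values was not tested.

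Most Cd177 UMIs were outside neutrophil-like cells. Columnar-like cells gave 62.3% to 72.1% of the Cd177 UMIs of the treated libraries, and neutrophil-like cells gave 0.615% to 3.35%. These shares partly follow how many UMIs each type held. Over all genes, columnar-like cells held 3125536, 11393750, 4355422 and 8543833 of 5132360, 16904947, 6659486 and 16079367 UMIs. Neutrophil-like cells held 171537, 970967, 64713 and 38917. In the normal library columnar-like cells (29.9% of cells) gave 77.0% and goblet-like cells (6.39% of cells) 22.2% of 374 UMIs, while fibroblast-like cells held 1 UMI in 364 cells (0.984 CPM). There Cd177 stood at 93.6 CPM in columnar-like cells, which held 0 UMIs of S100a8 and S100a9. Among partners of CD177 and genes of neutrophil adhesion, 7 of 7 tested genes of a list of 8 were higher in neutrophil-like than in columnar-like cells. Their median was 6.70 on the log2 scale against -0.15 over all genes, of which 1230 of 10965 were called higher. Among them, Itgam was higher by 6.81 ± 0.40 (edgeR adjusted p = 1.89e-61). The chemokine receptor Cxcr2, counted in the 7, was a marker that named the neutrophil-like clusters. Its difference of 8.44 ± 0.45 was therefore set by the naming and gives no separate support.

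Enteroendocrine-like cells, the hormone-producing cells of the epithelium, held Ceacam10 and Cd177 above the columnar-like cells of the same libraries. They numbered 11 and 16 on day 1 and 41 on day 6, and the 9 cells of day 3 were too few to be used. Ceacam10 stood at 526, 555 and 1152 CPM and Cd177 at 941, 1509 and 1212 CPM, above every columnar-like value. Single cells weighed heavily: 1 cell held 57.7%, 52.7% and 14.5% of the Ceacam10 UMIs and 37.8%, 74.6% and 33.1% of the Cd177 UMIs. Without that cell Ceacam10 stood at 356, 308 and 1081 CPM and Cd177 at 694, 450 and 890 CPM, still above the columnar-like cells of the same library each time, but for Cd177 in day 1 replicate 2 inside the columnar-like range over libraries. Goblet- or Paneth-like cells of day 3, at 933 CPM of Cd177, came close to the enteroendocrine-like cells of day 1 replicate 1. In this comparison, added after the levels were seen, Ceacam10 was higher than in columnar-like cells by 2.10 ± 0.33 on the log2 scale (edgeR adjusted p = 0.000655) and Cd177 by 2.09 ± 0.38 (edgeR adjusted p = 0.00186), each in 3 of 3 libraries. In all, 13.8% of 11326 genes were called. Both calls held whichever library was left out, while a fit without the highest cells was not made. Ceacam20 was lower, at -1.44 ± 0.36 (edgeR adjusted p = 0.0145). This call was lost with DESeq2 (adjusted p = 0.0684). It held in only 1 of 3 fits with 1 library left out (edgeR adjusted p up to 0.262). Ceacam1 at -0.64 ± 0.26 (edgeR adjusted p = 0.133) and Ceacam2 at -0.72 ± 0.27 (edgeR adjusted p = 0.101) did not pass, though each stayed so in only 1 of 3 such fits. Pecam1, the CD177 ligand, was also higher, by 3.10 ± 0.53 (edgeR adjusted p = 0.00128). It was the 1 gene called of 3 tested in the list of 8 CD177 partners and neutrophil adhesion genes. Pecam1 is an endothelial marker too, and the part of endothelial RNA in this value was not tested. Removing the cells with the highest 6% of doublet scores left too few enteroendocrine-like cells for a fit.

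**Figure D2:**
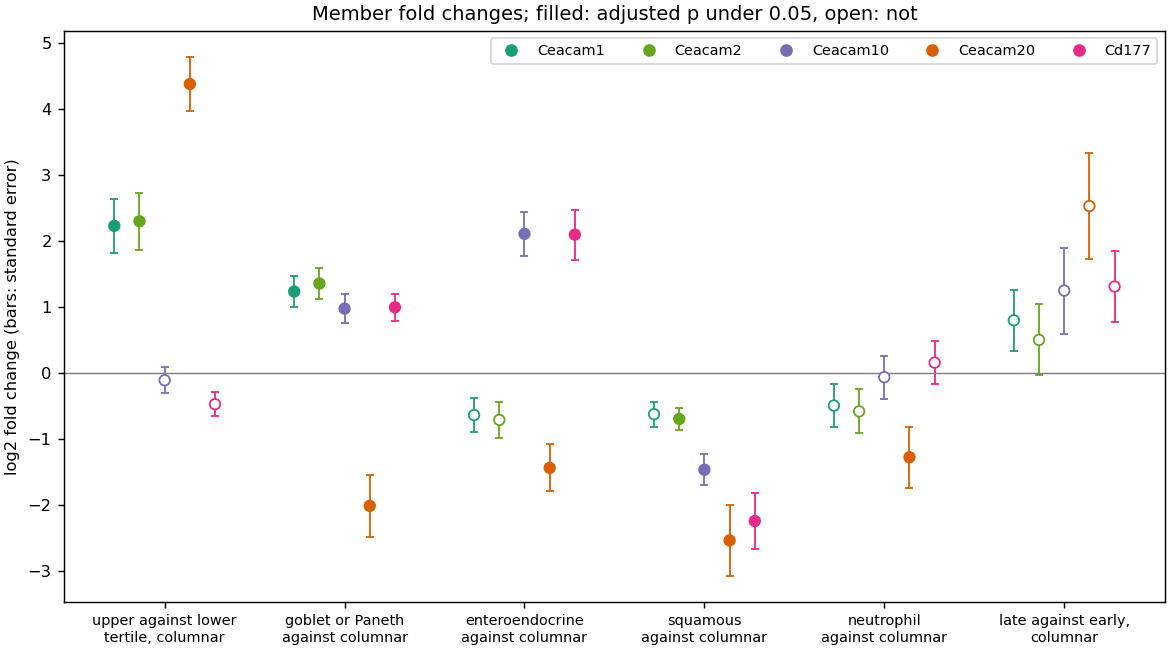
Log2 fold change with its standard error (vertical axis) of the 5 genes in 6 comparisons over the treated libraries (horizontal axis), filled where the adjusted p was under 0.05. Ceacam20 reached 4.37 in the upper tertile of columnar-like cells and was negative in the 4 comparisons of other cell types with columnar-like cells, while Ceacam10 and Cd177 were at 2.10 and 2.09 in enteroendocrine-like cells.

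Within columnar-like tumor cells the members separated into those that followed colonocyte differentiation and those that did not. Cells were thinned to 1000 UMIs and ranked in each library by the share of 22 genes of mature colonocytes, and the upper and lower tertiles (the cells split in 3 by rank, with 92, 412, 299 and 413 cells in each part) were compared over all UMIs. Median depths were 5328, 4144, 3557 and 3959 UMIs per cell in the upper and 10804, 7828, 3151 and 2211 in the lower tertiles, so depth was not ordered alike in all libraries. Ceacam20 stood at 81.0, 104, 83.6 and 474 CPM in the upper tertiles and at 1.66, 6.38, 13.6 and 22.7 CPM in the lower tertiles, without overlap. It was higher by 4.37 ± 0.41 on the log2 scale (edgeR adjusted p = 0.00138), and this call held whichever library was left out. Of all 11149 genes, 22.1% were called and 12.5% were higher in the upper tertile.

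Ceacam1 stood at 2632, 3282, 2401 and 2616 CPM in the upper tertiles and at 294, 582, 1527 and 1197 CPM in the lower tertiles. It was higher by 2.22 ± 0.41 (edgeR adjusted p = 0.00862), and Ceacam2 by 2.29 ± 0.43 (edgeR adjusted p = 0.00919), both in 4 of 4 libraries. The upper tertiles lay close together and the lower tertiles spread widely, lowest in day 1 replicate 1 and highest in day 3. Without day 1 replicate 2 the edgeR adjusted p was 0.0626 for Ceacam1 and 0.0661 for Ceacam2.

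Ceacam10 and Cd177 were not called between the tertiles. Ceacam10 stood at 128, 49.3, 178 and 211 CPM in the upper and 252, 63.6, 176 and 324 CPM in the lower tertiles, a difference of -0.12 ± 0.19 (edgeR adjusted p = 0.701). Cd177 stood at 210, 91.0, 397 and 208 CPM in the upper and 405, 169, 454 and 528 CPM in the lower tertiles. Its difference was -0.48 ± 0.18 (edgeR adjusted p = 0.0925). Both differences turned positive, at 0.60 and 0.37, without the columnar-like cluster whose markers stood closest to non-epithelial cells (533 cells, leading genes Mt4, Spock2, Wif1 and Nkd1), an alternative chosen after seeing the data.

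**Figure D3:**
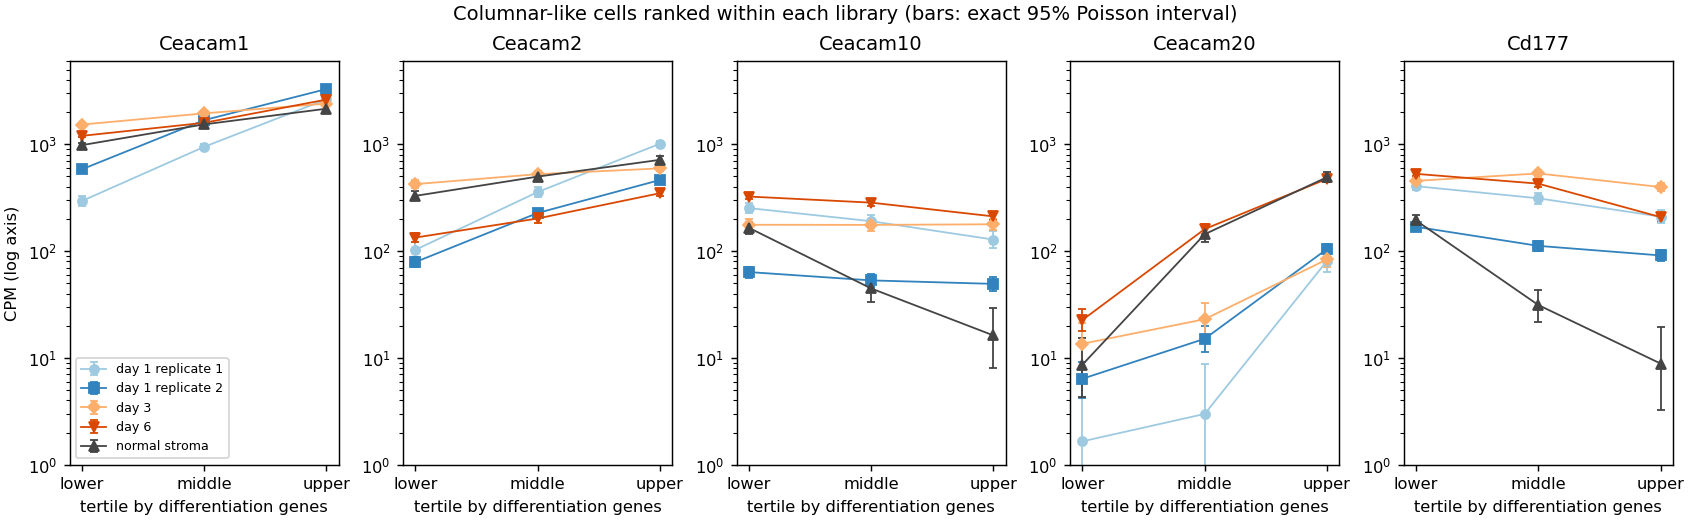
CPM (vertical axis, logarithmic) in the lower, middle and upper tertile of columnar-like cells by mature colonocyte genes (horizontal axis), with 1 line per library and exact 95% Poisson intervals. Ceacam20 climbed from 1.66 to 22.7 in the lower tertiles to 81.0 to 491 in the upper tertiles, and Ceacam10 and Cd177 were lower in the upper tertile in the normal library, at 16.2 and 8.85.

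The normal library, which took no part in these tests, also held more Ceacam20 in the upper tertile, while Cd177 and Ceacam10 ran the other way. From the lower to the upper tertile (106 cells each), Ceacam20 went from 8.64 CPM (95% interval 4.32 to 15.5, exact Poisson) to 491 CPM (440 to 547). Cd177 went from 193 CPM (170 to 219) to 8.85 CPM (3.25 to 19.3), and Ceacam10 from 165 CPM (143 to 189) to 16.2 CPM (8.10 to 29.0). Ceacam1 went from 980 CPM (926 to 1036) to 2149 CPM (2040 to 2263). With 1 library there is no replicate check, and the intervals cover counting error only. By cluster, the normal columnar-like cells led by Aqp8, Saa1, Car4 and Slc26a3 (139 cells) held Ceacam20 at 470 CPM and Cd177 at 9.22 CPM, whereas dividing cells led by Top2a and Ube2c (27 cells) held Ceacam20 at 2.93 CPM and Cd177 at 205 CPM.

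Partners of CEACAM1 and CEACAM20 were called in both directions between the tertiles of tumor cells: 2 of the 9 tested genes, of 11 in the list, were higher and 2 lower, with a median of 0.26 on the log2 scale against -0.07 over all genes. Over all genes, 12.5% were called higher and 9.53% lower. Ptprh, the SAP-1 phosphatase, was higher by 2.84 ± 0.23 (edgeR adjusted p = 0.00121) and Syk by 1.35 ± 0.24 (edgeR adjusted p = 0.00792). Ptpn6, the SHP-1 phosphatase, was lower, at -0.67 ± 0.15 (edgeR adjusted p = 0.0189). In squamous-like against columnar-like cells 5 of the 10 tested partners were lower and 1 was higher, where 8.95% of all 12272 genes were lower and 934 were higher. Ptprh was at -2.27 ± 0.53 (edgeR adjusted p = 0.0211), Syk at -1.93 ± 0.33 (edgeR adjusted p = 0.00582) and the actin-binding protein Flna at 1.88 ± 0.29 (edgeR adjusted p = 0.00384). Genes of stem cells and WNT were lower in the upper tertile for 10 of 13 tested genes, where 9.53% of all genes were, and 0 were higher.

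Late against early treatment, 0 of the 5 members passed in columnar-like cells by edgeR, where 0% of 13521 genes did, 2257 genes had an unadjusted p under 0.05 and DESeq2 called 680. With library structure as a block, which pairs 1 early with 1 late library, 256 genes (1.89%) were called but no member (Ceacam20 at 2.11, edgeR adjusted p = 0.0737). Ceacam20 stood at 25.3 and 38.6 CPM on day 1 and at 42.9 and 226 CPM on days 3 and 6. The late level was higher by 2.52 ± 0.81 on the log2 scale (edgeR adjusted p = 0.231). With DESeq2 it passed (adjusted p = 0.0176), and without day 3 as well (edgeR adjusted p = 0.000783), and day 6 set its size. Within the single index libraries the late minus early difference (log2 of TMM-scaled CPM + 20) was 0.67, and within the dual index libraries 2.46. The normal library's 165 CPM lay between the day 3 and day 6 values.

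In day 6, Ceacam20 was concentrated in 1 columnar-like cluster of 266 cells led by Clca4b, Ifit1bl1, Saa1 and Gbp2, which held 492 CPM and 1578 of the 1934 columnar UMIs. The members had been left out of the clustering genes, and the cluster is a description. Cd177 in late columnar-like cells was higher by 1.31 ± 0.53 (edgeR adjusted p = 0.295), with within-structure differences of 0.80 and 1.89. Ceacam10 was higher by 1.24 ± 0.65 (edgeR adjusted p = 0.386), with 0.16 in the single index and 2.35 in the dual index libraries. Ceacam1 differed by 0.79 ± 0.46 (edgeR adjusted p = 0.427) and by -0.04 without the columnar-like cluster closest to non-epithelial cells, which held 150 and 344 of its 533 cells in the day 1 libraries.

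In squamous-like cells, 0 members and 0% of 9770 genes passed by edgeR between late and early libraries, with 379 at an unadjusted p under 0.05, 17 called by DESeq2 and 16 with the structure block. Neither of these calls held a member, while Cd177 and Ceacam20 were among those under an unadjusted 0.05. Ceacam20 differed by 2.13 ± 0.71, on 2 and 5 UMIs in the day 1 libraries and 28 and 77 UMIs on days 3 and 6. Cd177 had the largest member difference at 2.47 ± 0.90 (edgeR adjusted p = 1.00), carried by 277 CPM in day 3, where fibroblast-like cells held 202 CPM. It passed without day 6 (edgeR adjusted p = 0.0402). The late change did not pass a test of difference between squamous-like and columnar-like cells for any member, where 0.0297% of 13484 genes did and 1251 had an unadjusted p under 0.05. For Ceacam20 that difference was -0.07 ± 1.35 (edgeR adjusted p = 0.996), an interval too wide to show likeness.

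In neutrophil-like cells Ceacam20 had too few counts to be tested, and 0 of the other 4 members and 0% of 2546 genes passed between late and early libraries by edgeR, with 154 at an unadjusted p under 0.05, 6 called by DESeq2 and 9 with the structure block. Neither of these calls held a member, while Cd177 was among those under an unadjusted 0.05. Cd177 differed by 2.55 ± 0.88 (edgeR adjusted p = 0.791) and passed only without day 3 (edgeR adjusted p = 4.16e-06), where the 24 cells of day 6 stood alone against day 1. Ceacam1 differed by 0.09 ± 0.59 (edgeR adjusted p = 0.995).

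Ceacam2 made up 27.5%, 12.2%, 20.7% and 11.2% of the UMIs of both genes in columnar-like cells of the treated libraries, ordered by day and replicate, and 24.8% in the normal library. In neutrophil-like cells of the first 3 of these libraries the shares were 26.4%, 9.26% and 21.1%. Values also varied between cell types of a library: in day 1 replicate 1 the share ran from 20.3% in macrophage-like to 30.2% in goblet- or Paneth-like cells, and in day 1 replicate 2 it was 12.2% (95% interval 11.7 to 12.6, exact binomial) in columnar-like and 9.57% (8.12 to 11.2) in squamous-like cells. These intervals take UMIs as independent and leave out the spread between cells. In the latter group 1 cell held 392 of 1332 Ceacam1 and 37 of 141 Ceacam2 UMIs, so a difference between these types was not shown. The tumor libraries of one index structure were nearer to each other, but the normal library, also dual index, stood with the single index ones. In the GENCODE transcripts, 73.5% of the 50-base windows in the last 500 bases of Ceacam2 were found in Ceacam1, and 46.0% of those of Ceacam1 in Ceacam2, so counts of the pair could be split by the counting, and every Ceacam2 value here is uncertain. Ceacam10 and Ceacam1 shared 0% of these end windows.

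**Figure D4:**
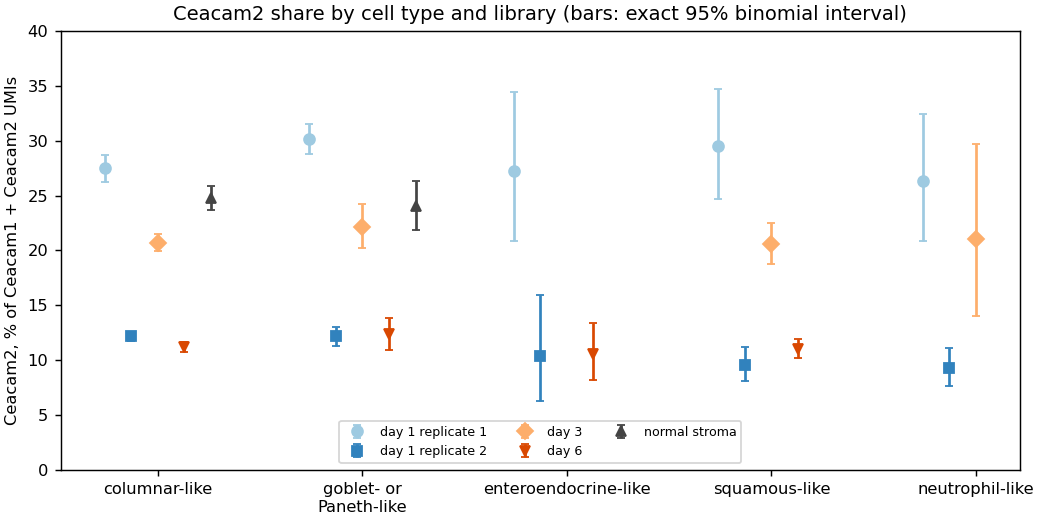
Share of Ceacam2 among the UMIs of Ceacam1 and Ceacam2 (vertical axis, percent) by cell type (horizontal axis) and library, with exact 95% binomial intervals, where both genes together had at least 100 UMIs. In columnar-like cells the share was 27.5% in day 1 replicate 1, 20.7% in day 3 and 11.2% in day 6.

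Over 39 sums of a cell type in a treated library, the genes most like each member by Pearson's r of log2(CPM + 20) were as follows, as a description of sums that share libraries. Ceacam10 and Cd177, neighbours on the chromosome, had r = 0.868, and the gene most like Cd177 was BC049730 (r = 0.938), which lies 29447 bases from Cd177 on its other side. BC049730 and Hoxb13 were among the 5 most like genes of both. Ceacam20 was closest to Clca4b (0.762), Clca3a2, Tm4sf20, Krt20 (0.718) and Atp12a. Ceacam1 was closest to Fut2 (0.874), Spint2, Plekha6, Ttc39a and Tspan8, and Ceacam2 to Lsr (0.904), Stard10, Hmgcs1, Spint2 and Cdh1.

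Other Ceacam genes were scarce. Of 9 listed with a value, Ceacam12 had 227 UMIs over all 5 libraries, 179 of them in columnar-like cells, and Ceacam18 had 182, of which 126 were in columnar-like cells. The rest held 0 to 32 UMIs each. In late columnar-like cells 2 of the family's other genes could be tested and 0 were called.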

How the data were processed

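Single cells were measured by inDrop with UMIs. The deposited values are raw UMI counts per gene and cell, made by the authors with dropEst on GRCm38.85, 1 table per library, without normalization. Treated libraries held 5132360, 16904947, 6659486 and 16079367 UMIs, and the normal library 5814641. Clusters (leidenalg 0.10.2, resolution 1) were named from marker lists, columnar-like or squamous-like ones where needed by their fold over non-epithelial cells, a rule loosened after the clusters were seen. Doublets were kept (Scrublet in scanpy 1.11.5 called 20 cells). Counts were summed per library and cell type (at least 10 cells) and tested with edgeR 4.0.16 (quasi-likelihood, TMM, low-count filter, Benjamini-Hochberg at 0.05) over all genes, with library as a block between types and tertiles. Standard errors were the fold divided by the root of the F statistic. DESeq2 1.42.0 was an alternative. The tests were tested on simulated data. The members and gene lists were chosen with earlier results of these data known. All members were tested in every comparison where counts allowed, and some that did not pass are not given with values. Named were at most 4 genes of a list, and the 5 most like genes of each member. The colonocyte list ranked the tertiles and gives no result there.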

Additional observations from a re-analysis of the deposited data

How the results depend on the processing

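Depth limited the small groups most: neutrophil-like cells of days 3 and 6 numbered 27 and 24, and Ceacam20 was at 0 UMIs in the latter. Of 115 alternative counts of called members, 80 stayed within 1.5 times the main count, of 542 alternative member folds 436 kept direction and side of the threshold, and of 195 alternative levels 175 stayed inside the counting interval. The causes of the changes were not tested. Late against early, 1 member was called in columnar-like cells without the low-count filter or with DESeq2 (0 to 1 without 1 library), 1 in squamous-like cells without the filter (0 to 1 without 1 library), and 0 to 1 in neutrophil-like cells without 1 library. Without the library block 0 members were called in each comparison between types or tertiles. Squamous-like against columnar-like cells gave 1 to 3 without 1 library and the tertiles 1 to 3. Neutrophil-like against columnar-like cells gave 3 (Ceacam1, Ceacam2 and Ceacam20) with RLE size factors, at resolution 2 and without the cluster closest to non-epithelial cells. This comparison gave 0 with DESeq2, and 0 to 1 without 1 library. Enteroendocrine-like against columnar-like cells gave 5 at resolution 2 and without that cluster (2 to 5 without 1 library), and goblet- or Paneth-like cells 1 to 5 without 1 library. Against fibroblast-like cells, neutrophil-like cells gave 1 to 4 without 1 library, and squamous-like cells 2 without the filter, 0 at resolution 0.5 and with the highest 6% of doublet scores removed, and 0 to 2 without 1 library.

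Direction turned for late against early columnar-like Ceacam1 (-0.042 at resolution 2 and -0.037 without the cluster) and Ceacam2 (-0.49 and -0.48, and -0.12 to 1.07 without 1 library). In late squamous-like cells without 1 library Ceacam1 ranged from -0.042 to 1.09 and Ceacam2 from -0.48 to 0.95. In late neutrophil-like cells Ceacam1 turned to -0.33 without the filter and ranged from -0.51 to 0.32 without 1 library, and Ceacam2 turned to -0.35 without the filter, -0.014 with DESeq2 and -0.27 with library structure as a block, and ranged from -2.11 to 0.94 without 1 library. Neutrophil-like against columnar-like Ceacam10 turned to 0.27 at resolution 2 and without the cluster, and Cd177 to -0.061 without the filter and from -0.51 to 0.30 without 1 library. Between the tertiles Ceacam10 turned to 0.57 at resolution 2 and 0.60 without the cluster (-0.19 to 0.10 without 1 library), and Cd177 to 0.35 and 0.37. In squamous-like against fibroblast-like cells Ceacam10 turned to 0.12 without the filter (-0.44 to 0.012 without 1 library), and Cd177 to 0.12 without the block (-0.76 to 0.30 without 1 library). None of these turned values was called in either fit. Enteroendocrine-like cells could not be fitted with the highest doublet scores removed, since only day 6 kept 10 of them. Pairing 1 early with 1 late library by library structure, as a block, called 0 members in any late against early comparison.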
